A study of Arabidopsis thaliana with 75 samples.

Results

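Leaf mRNA of the Arabidopsis thaliana line labelled mta was compared with leaf mRNA of Col-0 at the time that the sample titles write as 24. The comparison rests on 6 of the 75 samples of the series, 3 libraries of mta 24 and 3 of Col-0 24, all named by their titles and genotype tags. The spread was estimated together with 3 libraries of mta 00 and 3 of Col-0 00, the same genotypes with the treatment tag untreated. All 12 came from leaves of plants 4 weeks old and were sequenced as paired ends after poly(A) selection. Of 32844 gene loci in the count tables, 18824 had enough reads to be tested.

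The labels leave several properties of these groups open. Titles of the leaf samples name Pst, the protocol describes infiltration of leaves with bacteria, the series text names P. syringae maculicola, and the treatment tag of the 24 samples names 1 µM flg22 (the bacterial flagellin peptide) for 4 h. The number 24 carries no unit, so the groups are called 00 and 24. Which mta line was used, and whether it carries a rescuing transgene, was not stated in the labels. Whether replicates were separate plants or pools is not given either, so the p-values measure the spread between libraries, which may be technical. In whole leaves, fewer cells of a type and less RNA per cell cannot be told apart.

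N6-methyladenosine (m6A) is the most common internal modification of mRNA. In plants it is deposited by a nuclear writer complex in which MTA is the catalytic methyltransferase, is bound by YTH-domain proteins of the ECT family, and is removed by demethylases of the ALKBH family. Loss of the writer is embryo-lethal in Arabidopsis. In leaves attacked by bacteria, the hormones salicylic acid and jasmonate direct partly opposed defence programmes, while photosynthesis genes are usually lowered.

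In units of 1e6 reads, gene counts summed to between 20.5 and 44.1 in the mta 24 libraries and between 30.2 and 37.2 in the Col-0 24 libraries. The first principal component of log2 CPM (counts per 1e6 counts) held 76.9% of the variance and separated 24 from 00, and the second held 11.2% and separated the genotypes at both times. Replicate 1 of mta 00 lay nearer to the 24 libraries (PC1 −44.3, against −111 and −91.3 for the other mta 00 libraries). Replicate 2 of mta 24 had 12.7% of alignments that were not unique, against 3.71% to 7.31% in the other 5 libraries at 24. MTA itself (AT4G10760, chromosome 4, 6619817 to 6623381, TAIR10) had 0 counts in all 12 libraries. A second locus of the same strand, AT4G05815 (6618465 to 6623352), covers 99.2% of it, so the counts do not check the genotype labels.

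Among the tested genes, 2737 (14.5%) were higher and 2668 (14.2%) were lower in mta 24 than in Col-0 24 (edgeR quasi-likelihood test, Benjamini-Hochberg adjusted p under 0.05 over all genes). The median difference over all tested genes was 0.00 on the log2 scale. Rises and falls here are differences of mta 24 from Col-0 24, not changes over time. Rises were larger than falls. The median log2 difference was 0.95 among the genes that rose and −0.58 among those that fell, and a fold of 2 or more was reached by 1299 genes that rose (6.9% of those tested) and by 311 that fell (1.65%), together 1610 (8.55%). With upper quartile scaling, which moved the median of all genes to 0.07, the split was 3178 higher and 2081 lower. Without Col-0 24 replicate 3 the total of 5405 became 3298.

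**Figure D1:**
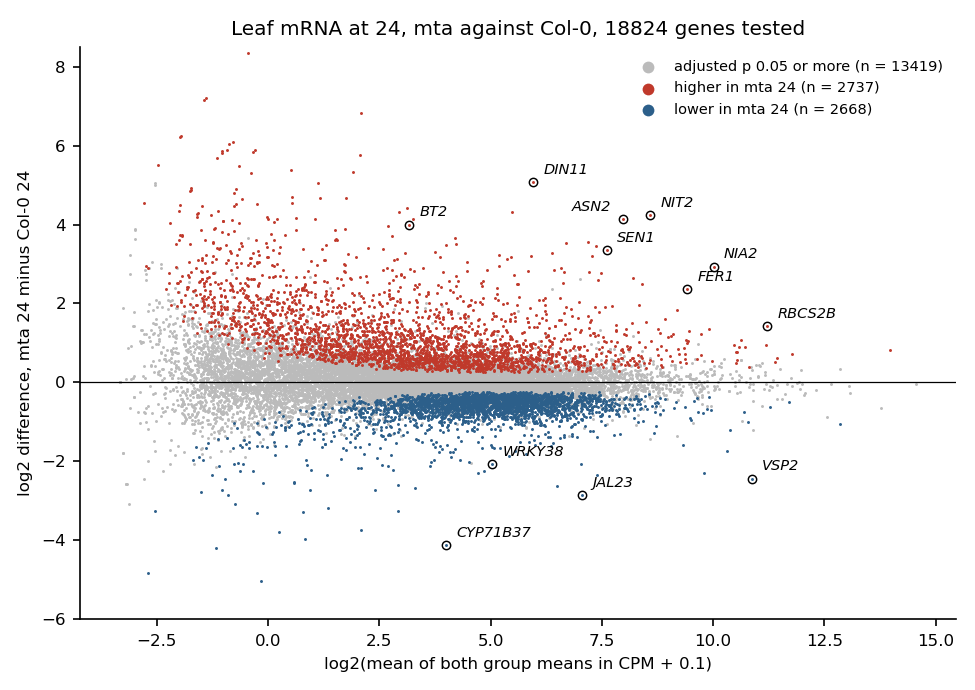
Log2 difference of leaf mRNA, mta 24 minus Col-0 24, against the log2 of the mean level in CPM plus 0.1, 1 point per gene for the 18824 genes tested. Red points are the 2737 genes higher in mta 24 and blue points the 2668 lower (adjusted p under 0.05), and the red cloud reaches further from 0 than the blue one.

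Genes of nitrogen assimilation were higher in mta 24. Of 8 tested genes of nitrate transport and assimilation, 7 rose in mta 24 and 0 fell, against 14.5% of all genes, and the median log2 difference of the list was 1.01. This list and those below were chosen with earlier results of these data known. Their counts beside the shares of all genes are therefore a description and no independent support. ASN2 (AT5G65010), an asparagine synthetase, stood at 493, 489 and 456 CPM in mta 24 and at 20.7, 38.2 and 22.8 CPM in Col-0 24, so that the lowest mta library lay far above the highest Col-0 library. Its log2 difference was 4.14 ± 0.24 (SE, adjusted p = 1.3e-05). At 00 ASN2 had 475, 351 and 348 CPM in mta 00 and 187, 159 and 152 CPM in Col-0 00. NIA2, the major nitrate reductase, had 1864, 1857 and 1753 CPM in mta 24 and 268, 285 and 164 CPM in Col-0 24 (2.93 ± 0.22, adjusted p = 2.7e-05). NIR1, the nitrite reductase that follows it in the chloroplast, had 587, 591 and 538 CPM in mta 24 and 88.3, 124 and 91.7 CPM in Col-0 24 (2.50 ± 0.18, adjusted p = 2.1e-05). Neither pair of groups overlapped. The dual-affinity nitrate transporter NRT1.1 rose by only 0.51 ± 0.08 (adjusted p = 0.0014), and NIA1, GLU1 (ferredoxin-dependent glutamate synthase) and ASN1 by 1.23, 0.50 and 0.78 (adjusted p = 0.012, 0.017 and 0.03). Between 5 and 7 genes of the list rose when a library was left out, GLU1 and ASN1 being lost in 2 and 4 of 16 alternative settings. In this list 4 genes also had a positive difference of differences, that is, a larger mta excess at 24 than at 00 (4.77% of all genes did). They were NIA2 (1.52, adjusted p = 0.0099), NIR1 (1.78, adjusted p = 0.0021), NRT1.1 (0.57, adjusted p = 0.016) and ASN2 (2.90, adjusted p = 0.00063).

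BT2, a BTB and TAZ domain protein known to respond to nitrate and sugar, followed the same direction. It had 13.7, 17.3 and 19.1 CPM in mta 24 and 1.26, 1.24 and 0.623 CPM in Col-0 24 (4.00 ± 0.24, adjusted p = 1.3e-05), and its difference at 00 did not pass (0.21, adjusted p = 0.43). Levels at 00 were far higher, with 235, 164 and 196 CPM in mta 00 and 179, 172 and 163 CPM in Col-0 00. The difference of differences was 3.79 (adjusted p = 0.00021).

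DIN11, a dark-inducible dioxygenase, led all rises that met the naming rule, with 130, 106 and 127 CPM in mta 24 and 3.25, 5.97 and 1.48 CPM in Col-0 24 (5.07 ± 0.75, adjusted p = 0.00075). The difference at 00 was of similar size (5.17, adjusted p = 0.0016). SEN1 (AT4G35770), a marker of dark-induced senescence, had 378, 383 and 303 CPM in mta 24 and 27.6, 45.6 and 31.1 CPM in Col-0 24 (3.35 ± 0.47, adjusted p = 0.00054). The sugar transporter SAG29 had 91.7, 44.1 and 37.6 CPM in mta 24 and 15, 14.2 and 7.56 CPM in Col-0 24 (2.23 ± 0.40, adjusted p = 0.0022), with the mta libraries spread widely but all above Col-0. RNS1, a ribonuclease of senescence and wounding, rose by 2.53 ± 0.63 (adjusted p = 0.012). Of 12 tested senescence and chlorophyll breakdown genes, 4 rose (the fourth was NYC1, 0.68, adjusted p = 0.047) and 1 fell, the pheophytin hydrolase PPH (−0.57 ± 0.15, adjusted p = 0.014). The median of this list was 0.85. Without Col-0 24 replicate 3, the list had 2 genes higher and 0 lower, with RNS1 and PPH lost (adjusted p = 0.06 and 0.065).

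The other large rises were of mixed kinds. NIT2, a nitrilase, had 841, 753 and 595 CPM in mta 24 and 26.4, 68.2 and 21.8 CPM in Col-0 24 (4.23 ± 1.02, adjusted p = 0.01), and reads may be split between it and its near-identical tandem copies. This call was lost without Col-0 24 replicate 3 (adjusted p = 0.053). The subtilase SBT3.3, known from immune priming, had 254, 152 and 165 CPM in mta 24 and 16.7, 16.6 and 15.8 CPM in Col-0 24 (3.54 ± 0.46, adjusted p = 0.0004). XTH19, a cell-wall xyloglucan transferase, had 32.3, 31.0 and 38.7 CPM in mta 24 and 5.27, 1.88 and 1.07 CPM in Col-0 24 (3.65 ± 0.55, adjusted p = 0.00082). The glycosyltransferases of small molecules, UGT85A3 (3.71) and UGT73C1 (3.5), the phosphate-induced gene PHI-1 (3.96), the embryo-type gene M17 (4.42) and AT3G17520, AT3G02480, AT2G36780, AT1G09500 and AT5G16980 (3.48 to 4.33) completed the 15 largest rises.

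**Figure D2:**
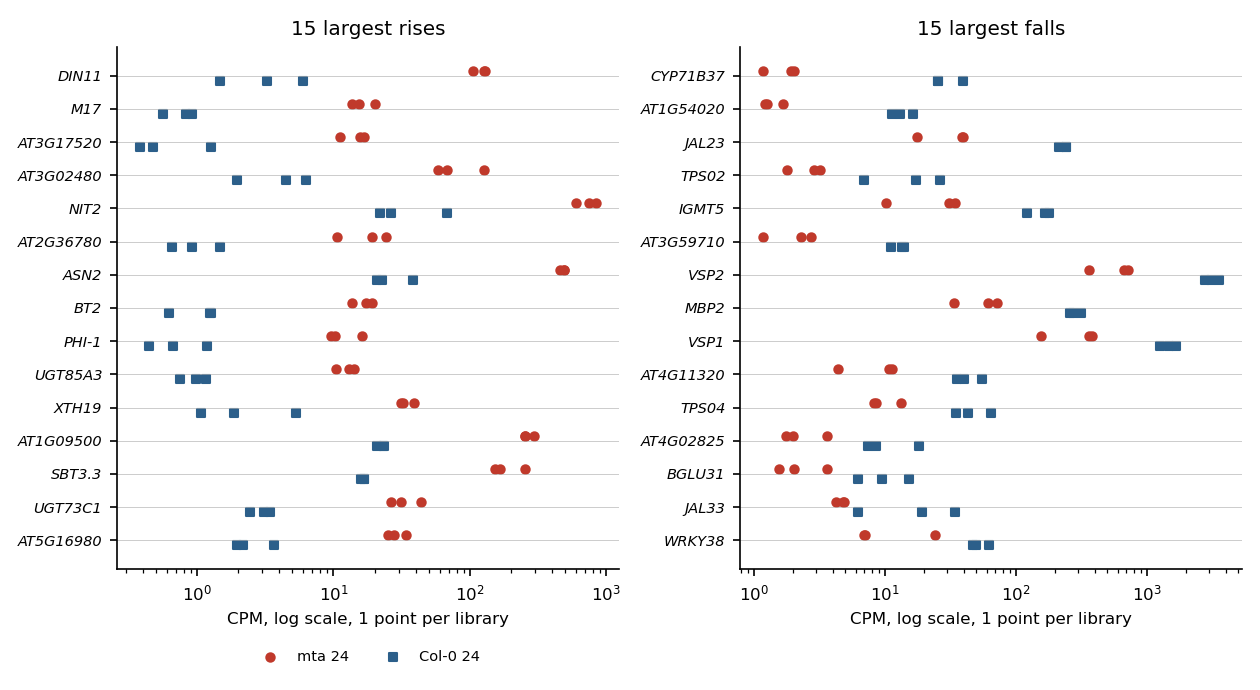
CPM of each library on a log axis for the 15 genes with the largest rises and the 15 with the largest falls, red circles for mta 24 and blue squares for Col-0 24. The 3 mta values and the 3 Col-0 values of each gene do not overlap, which was a condition of the choice.

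Jasmonate-inducible genes stood among the largest falls. VSP2, a vegetative storage protein and a standard jasmonate marker, had 363, 715 and 666 CPM in mta 24 and 2805, 3086 and 3575 CPM in Col-0 24 (−2.44 ± 0.39, adjusted p = 0.0011). VSP1, its close paralogue, had 157, 382 and 360 CPM in mta 24 and 1274, 1478 and 1687 CPM in Col-0 24 (−2.30 ± 0.37, adjusted p = 0.0011). Reads of such similar copies could be assigned to either, and both moved the same way. JAL23, a jacalin-related lectin of the glucosinolate system, had 17.6, 39.0 and 39.7 CPM in mta 24 and 242, 215 and 244 CPM in Col-0 24 (−2.86 ± 0.59, adjusted p = 0.0046). MBP2, a myrosinase-binding protein, had 33.5, 61.6 and 71.7 CPM in mta 24 and 272, 260 and 314 CPM in Col-0 24 (−2.34 ± 0.45, adjusted p = 0.0031). In all 4 genes, mta 24 replicate 1 was the lowest library. TPS04, the terpene synthase of a volatile released on wounding, had 13.3, 8.28 and 8.5 CPM in mta 24 and 64.8, 34.8 and 43.0 CPM in Col-0 24 (−2.25 ± 0.49, adjusted p = 0.006, but 0.069 by the DESeq2 Wald test). IGMT5, a methyltransferase of indole glucosinolates, had 10.3, 31.0 and 34.2 CPM in mta 24 and 168, 122 and 180 CPM in Col-0 24 (−2.63 ± 0.46, adjusted p = 0.0019).

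Of 14 tested genes of jasmonate output, 4 fell (VSP1, VSP2, TPS04 and the chlorophyllase CLH1, −0.74 ± 0.19, adjusted p = 0.015) and 0 rose, against 14.2% of all genes that fell. The list median was −0.42. The CLH1 call was lost without Col-0 24 replicate 3 (adjusted p = 0.06). In 7 of the 14 genes the mta difference was lower at 24 than at 00 (4.97% of all genes), and 0 had the opposite sign. Such counts of differences of differences are given for the main fit only, here and in the other lists. Over all genes that count was 1833, and 809 to 2170 with 1 library left out. At 00, 9 of the 14 had stood higher in mta than in Col-0 (15.5% of all genes did). Among the 4 that fell at 24 these were VSP2, by 1.3 (adjusted p = 0.045), VSP1, by 2.79 (adjusted p = 0.0031) and CLH1, by 2.02 (adjusted p = 0.00013). VSP1 thus had a difference of differences of −5.10 (adjusted p = 0.0015), VSP2 of −3.74 (adjusted p = 0.0041) and CLH1 of −2.76 (adjusted p = 0.00049). At 00 both VSP genes stood at low levels. VSP1 had 3.19, 1.36 and 2.58 CPM in mta 00 and 0.16, 0.606 and 0.291 CPM in Col-0 00. VSP2 had 6.34, 1.98 and 2.70 CPM in mta 00 and 0.94, 1.51 and 2.01 CPM in Col-0 00, groups that overlapped.

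Of 17 tested genes that make and inactivate jasmonate, 2 rose and 3 fell, near the 14.5% and 14.2% of all genes. The lipoxygenase LOX6 (−0.63, adjusted p = 0.0016), the cyclase AOC4 (−1.33 ± 0.19, adjusted p = 0.0006) and the ligase OPCL1 (−0.70, adjusted p = 0.041) fell. AOC4 had 23.7, 31.6 and 35.6 CPM in mta 24 and 74.3, 67.7 and 87.6 CPM in Col-0 24, a gap wider than the spread of either group. JAR1, which conjugates jasmonate to isoleucine, rose by 0.55 (adjusted p = 0.0092), and CYP94B3, which oxidises that conjugate, by 2.08 (adjusted p = 0.045). OPCL1 and CYP94B3 were lost in 7 and 6 of 16 alternative settings. Without mta 00 replicate 1, the library that stood apart, 8 genes of this list fell. None of the 12 tested JAZ repressors passed in the main edgeR fit (0 at an unadjusted p under 0.05, 0 by DESeq2), and 3 were lower without mta 00 replicate 1. Their log2 median was −0.13, and the 4 with the smallest p, JAZ6, JAZ12, JAZ11 and JAZ2, had differences of −0.48, −0.33, −0.28 and −0.38 (adjusted p = 0.13, 0.16, 0.21 and 0.27).

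The remaining large falls included the cytochrome P450 CYP71B37, the largest of all that met the naming rule. It had 1.17, 2.01 and 1.94 CPM in mta 24 and 25.3, 25.4 and 39.9 CPM in Col-0 24 (−4.12 ± 0.33, adjusted p = 9.1e-05). At 00 the difference was −4.39 with an adjusted p of 0.10. AT1G54020 (−3.27), the terpene synthase gene TPS02 (−2.69), AT3G59710 (−2.61), AT4G11320 (−2.30), AT4G02825 (−2.23), the beta-glucosidase BGLU31 (−2.12) and the lectin JAL33 (−2.11) fell too. AT4G11320 was lost in 2 and JAL33 in 6 of 16 alternative settings (adjusted p up to 0.066 and 0.088).

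Of 20 tested genes of salicylic acid synthesis and regulation, 4 fell in mta 24 and 0 rose, where 14.2% of all genes fell, and the list median was −0.26. WRKY38 and WRKY62, a pair of transcription factors induced through NPR1, gave the widest falls. WRKY38 had 24.1, 7.05 and 6.94 CPM in mta 24 and 62.0, 46.8 and 49.6 CPM in Col-0 24 (−2.07 ± 0.49, adjusted p = 0.0087). WRKY62 had 60.8, 34.2 and 36.2 CPM in mta 24 and 165, 93.2 and 119 CPM in Col-0 24 (−1.53 ± 0.28, adjusted p = 0.0023). The salicylic acid receptors NPR1 (−0.50 ± 0.09, adjusted p = 0.0025) and NPR3 (−0.79 ± 0.18, adjusted p = 0.0082) also fell. NPR1 had 64.7, 54.7 and 55.3 CPM in mta 24 and 78.0, 81.4 and 87.6 CPM in Col-0 24. The synthesis genes ICS1, EDS5 and PBS3 differed by 0.17, −0.13 and 0.17 on the log2 scale and did not pass. In the main fit the mta difference was lower at 24 than at 00 in 9 of the 20 genes (4.97% of all genes), and in 0 it was higher. For WRKY62 this difference of differences was −4.36 (adjusted p = 0.011), and at 00 it had stood higher in mta by 2.83 (adjusted p = 0.024), from low levels of 29 counts in sum over the mta 00 libraries.

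In mta 24 replicate 1, several defence genes had higher levels than in the other 2 mta libraries. BG2, the glucanase PR2, had 549, 189 and 245 CPM in mta 24 and 847, 843 and 853 CPM in Col-0 24. The groups did not overlap, yet the difference of −1.37 ± 0.51 did not pass (adjusted p = 0.063). ALD1, of pipecolic acid synthesis, had 59.7, 23.2 and 20.2 CPM in mta 24 and 79.6, 67.0 and 83.0 CPM in Col-0 24 (−1.16 ± 0.43, adjusted p = 0.064), and FMO1, which makes the mobile signal N-hydroxypipecolic acid, had 341, 164 and 141 CPM in mta 24 and 122, 109 and 121 CPM in Col-0 24 (0.87 ± 0.32, adjusted p = 0.058). Of the 3 tested genes of that pathway 0 passed in the main edgeR fit (2 at an unadjusted p under 0.05, 1 by DESeq2), and with the replicate number as a block 1 was higher and 1 lower. Of 11 pathogenesis-related genes, 3 rose and 0 fell, where 14.5% of all genes rose and 14.2% fell. There were 3 rises and 2 falls under the block, and 2 rises and 2 falls without mta 24 replicate 1. The summed level of the list was lower in mta 24 (551 to 1398 CPM) than in Col-0 24 (1655 to 1781 CPM). PR1 had 367, 134 and 128 CPM in mta 24 and 608, 588 and 490 CPM in Col-0 24. The groups did not overlap, and its difference of −1.43 ± 0.58 did not pass (adjusted p = 0.088). The lipid-transfer protein AZI1 had 17.0, 10.7 and 9.90 CPM in mta 24 and 1.73, 2.55 and 1.51 CPM in Col-0 24 (2.69 ± 0.50, adjusted p = 0.0027). The defensin PDF1.4 rose by 1.80 ± 0.41 (adjusted p = 0.0073) and PDF1.3 by 1.98 ± 0.63 (adjusted p = 0.036, lost in 5 of 16 alternative settings). PDF1.3 was low, with a mean of 2.33 CPM in mta 24 and 0.582 CPM in Col-0 24. Defensins are similar enough that reads may be shared.

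**Figure D3:**
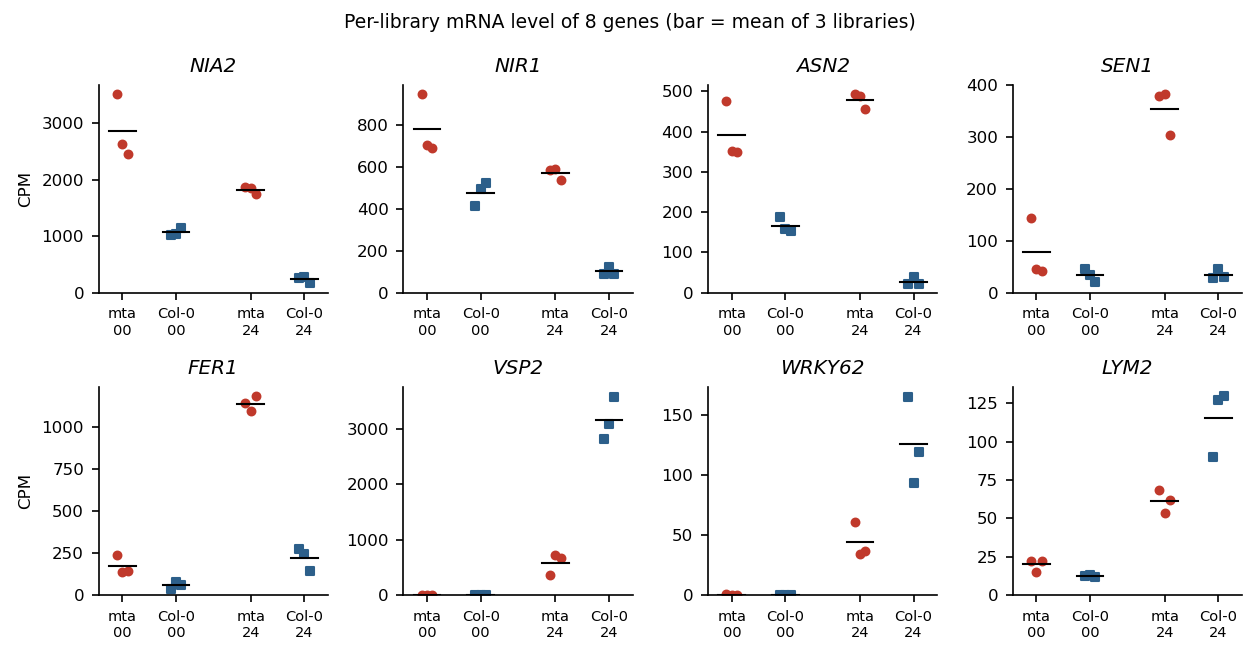
CPM of 8 genes in each library at 00 and at 24, red circles for mta and blue squares for Col-0, with a bar at the mean of 3 libraries. ASN2, NIA2, NIR1, SEN1 and FER1 lie higher in the mta 24 libraries than in all Col-0 24 libraries, and VSP2, WRKY62 and LYM2 lie lower.

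Of 22 tested receptors and signalling genes of pattern-triggered immunity (PTI), 7 fell and 1 rose, where 14.2% of all genes fell and 14.5% rose. LYM2, a chitin receptor, had 68.3, 53.7 and 61.7 CPM in mta 24 and 90.3, 127 and 130 CPM in Col-0 24 (−0.92 ± 0.17, adjusted p = 0.0028). MKK2, a kinase of the MPK4 cascade, had 101, 82.3 and 89.6 CPM in mta 24 and 159, 176 and 188 CPM in Col-0 24 (−0.94 ± 0.11, adjusted p = 0.00019). The chitin co-receptor CERK1 (−0.64, adjusted p = 0.0034) and the kinase MPK4 (−0.55, adjusted p = 0.004) fell as well. Without Col-0 24 replicate 3, 5 genes of this list fell and 0 rose. Of 13 genes in the list of NLR receptors and their partners, 5 fell and 0 rose, among them the receptor SNC1 (302, 278 and 267 CPM in mta 24 and 476, 385 and 435 CPM in Col-0 24, −0.61 ± 0.12, adjusted p = 0.003) and RIN4, a membrane protein that such receptors guard (−0.65 ± 0.12, adjusted p = 0.0024). RPP8 (−0.31, adjusted p = 0.025), AT5G66910 (−0.63, adjusted p = 0.023) and ADR1-L2 (−0.36, adjusted p = 0.037) made up the 5, and 2 fell without Col-0 24 replicate 3 or without mta 24 replicate 2 or 3.

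Among 16 PTI marker genes 2 rose, PHI-1 and WRKY22 (0.99 ± 0.23, adjusted p = 0.0092), and 0 fell, while with the block 3 rose and 1 fell. Over all genes 14.5% rose and 14.2% fell. FRK1, the receptor-like kinase most used as such a marker, had 27.9, 24.9 and 20.4 CPM in mta 24 and 40.8, 37.9 and 31.0 CPM in Col-0 24 (−0.59 ± 0.29, adjusted p = 0.15). The groups did not overlap and the difference did not pass.

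Against 14.2% of all genes that fell, 4 of 9 tested tryptophan synthesis genes fell (ASA1, PAT1, AT2G04400 and TSB1) and 1 rose (PAI1, 0.69, adjusted p = 0.025). ASA1, the committing anthranilate synthase subunit, had 159, 156 and 149 CPM in mta 24 and 273, 238 and 244 CPM in Col-0 24 (−0.70 ± 0.13, adjusted p = 0.0025). PAT1 (AT5G17990), the next enzyme, had 183, 151 and 150 CPM in mta 24 and 263, 245 and 271 CPM in Col-0 24 (−0.68 ± 0.11, adjusted p = 0.001). AT2G04400 (−0.41, adjusted p = 0.011) and TSB1 (−0.42, adjusted p = 0.031) fell less, and without Col-0 24 replicate 3 or mta 24 replicate 2 or 3 the list had 3 genes lower and 0 higher. Of 16 camalexin and indole glucosinolate genes 1 fell, CYP71A13 of camalexin synthesis (−1.54 ± 0.42, adjusted p = 0.019), and 1 rose, CYP81F2 (1.23 ± 0.37, adjusted p = 0.028). Each of these calls was lost in 4 of 16 alternative settings, and both shares lay below those of all genes (14.5% rose and 14.2% fell). Aliphatic glucosinolate genes had 1 rise of 14, the aminotransferase BCAT3 (0.64, adjusted p = 0.015), lost in 4 settings.

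Of 14 tested iron genes, 5 rose and 1 fell in mta 24, where 14.5% of all genes rose and 14.2% fell. FER1, a plastid ferritin, had 1140, 1096 and 1182 CPM in mta 24 and 274, 243 and 144 CPM in Col-0 24 (2.37 ± 0.32, adjusted p = 0.00045), although an annotated locus of the other strand covers its whole span. FER3 had 63.0, 92.4 and 89.0 CPM in mta 24 and 17.3, 21.8 and 15.4 CPM in Col-0 24 (2.16 ± 0.18, adjusted p = 4.7e-05), and FER4 rose by 1.39 ± 0.15 (adjusted p = 0.00015). The nicotianamine synthases NAS1 (2.85 ± 0.55, adjusted p = 0.0033) and NAS3 (1.75 ± 0.50, adjusted p = 0.023) rose, and AT1G47395 fell (−1.83 ± 0.48, adjusted p = 0.016). NAS3 was lost in 4 and AT1G47395 in 2 of 16 alternative settings. The list median was 0.22.

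Of 11 tested abscisic acid and cold-stress genes 5 rose and 0 fell, where 14.5% of all genes rose, with a median of 0.45, and 3 rose without Col-0 24 replicate 3 or mta 24 replicate 2. COR15A, a chloroplast-protecting protein, had 1488, 2166 and 1930 CPM in mta 24 and 850, 993 and 1074 CPM in Col-0 24 (0.94 ± 0.19, adjusted p = 0.0037). RD29A had 894, 795 and 803 CPM in mta 24 and 466, 501 and 530 CPM in Col-0 24 (0.73 ± 0.16, adjusted p = 0.0057). KIN1 rose by 0.92 (adjusted p = 0.016) and RD29B by 1.48 (adjusted p = 0.039). CYP707A3, which breaks abscisic acid down, had only 1.03, 1.79 and 1.76 CPM in mta 24 and 0.442, 0.269 and 0.326 CPM in Col-0 24 (2.18 ± 0.33, adjusted p = 0.00091).

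Of 13 tested genes of ethylene synthesis and signalling, 4 fell in mta 24, where 14.2% of all genes fell. The oxidase ACO4, of the last step of ethylene synthesis, had 780, 567 and 579 CPM in mta 24 and 1284, 944 and 1066 CPM in Col-0 24 (−0.77 ± 0.21, adjusted p = 0.019). EIN2 (−0.35), ERS1 (−0.48) and EBF1 (−0.53) fell with adjusted p = 0.025, 0.047 and 0.047. The 4 falls were reduced to 0 without mta 24 replicate 2 or 3 and to 1 without Col-0 24 replicate 1 or 3 or mta 24 replicate 1.

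Of 15 Calvin cycle genes, 4 rose and 0 fell, where 14.5% of all genes rose. The 4 were all small subunits of Rubisco, and 1 gene of the list rose without Col-0 24 replicate 3 or mta 24 replicate 2. RBCS2B had 3225, 3884 and 3301 CPM in mta 24 and 877, 1659 and 1347 CPM in Col-0 24 (1.42 ± 0.21, adjusted p = 0.00076). RBCS1A (0.83), RBCS1B (0.73) and RBCS3B (0.73) rose with adjusted p = 0.019, 0.037 and 0.039. These copies are nearly identical in part, so reads may be split among them. Of 15 chlorophyll synthesis and GLK genes, 5 rose and 0 fell, against the same 14.5%. PORB, which reduces protochlorophyllide in the light, had 90.6, 140 and 118 CPM in mta 24 and 19.8, 44.5 and 35.1 CPM in Col-0 24 (1.81 ± 0.30, adjusted p = 0.0013), and the transcription factor GLK2 rose by 0.59 ± 0.14 (adjusted p = 0.01). HEMA1 (0.53, adjusted p = 0.031), GUN4 (0.66, adjusted p = 0.016) and PORA (2.12, adjusted p = 0.02) were the other 3, and 2 genes of the list passed without Col-0 24 replicate 1 or mta 24 replicate 2. Of 15 antenna genes none passed in the main edgeR fit (1 at an unadjusted p under 0.05, 0 by DESeq2). With the block 4 rose and 1 fell, and without Col-0 24 replicate 1, 1 fell. Where 14.2% of all genes fell, photosystem subunits had 2 falls of 16, PSAE-2 (−0.52, adjusted p = 0.019) and PSAL (−0.51, adjusted p = 0.03). With the block they had 3 rises and 2 falls. Neither fall passed without Col-0 24 replicate 3 or mta 24 replicate 1. Chloroplast-encoded RNA took 0.0786%, 0.188% and 0.0365% of gene counts in mta 24 and 0.0256%, 0.0205% and 0.0254% in Col-0 24. Of 56 tested chloroplast loci 32 rose and 1 fell (median 1.51). Chloroplast RNA mostly lacks poly(A) tails, and the part of the selection step in these differences was not tested.

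Phenylpropanoid and lignin genes had 6 rises and 1 fall among 15 tested, where 14.5% of all genes rose. CAD5, an alcohol dehydrogenase of lignin synthesis, had 348, 267 and 294 CPM in mta 24 and 87.7, 86.0 and 65.9 CPM in Col-0 24 (1.92 ± 0.29, adjusted p = 0.00091), with the same distance at 00 (2.06, adjusted p = 0.00091). HCT had 146, 147 and 158 CPM in mta 24 and 71.6, 94.2 and 79.1 CPM in Col-0 24 (0.88 ± 0.13, adjusted p = 0.00091), and 4CL1 rose by 0.76 ± 0.12 (adjusted p = 0.0013). The reductase CCR1 (AT1G15950) fell by 0.40 on the log2 scale (adjusted p = 0.0095), with a locus of the other strand over 79.1% of its span. In the flavonoid list 1 gene of 15 rose, the regulator PAP1 (AT1G56650, 0.57 ± 0.13, adjusted p = 0.0087).

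Of 15 heat-shock genes 4 rose and 0 fell, where 14.5% of all genes rose, with a median of 1.06. HSP18.2 had 4.49, 6.53 and 6.47 CPM in mta 24 and 1.32, 1.64 and 2.08 CPM in Col-0 24 (1.80 ± 0.22, adjusted p = 0.00026). AT1G53540 (3.37, adjusted p = 0.046) and HSP23.6-MITO (2.56, adjusted p = 0.045) were lost when any of the 6 libraries at 24 was left out. HSP22.0 had 0.187, 0.821 and 0.676 CPM in mta 24 and 0 counts in all 3 Col-0 24 libraries (adjusted p = 0.009). The heat-shock count was 1 without mta 24 replicate 3 and 6 without mta 00 replicate 1. Of 13 endoplasmic reticulum chaperones 4 fell and 0 rose, where 14.2% of all genes fell. SDF2, a partner of the J-domain protein ERDJ3B, had 65.7, 48.2 and 57.0 CPM in mta 24 and 82.1, 104 and 115 CPM in Col-0 24 (−0.82 ± 0.14, adjusted p = 0.0017), and ERDJ3B itself (−0.67), CRT1A (−0.55) and BIP1 (−0.50) fell with adjusted p = 0.014, 0.025 and 0.039. Between 1 and 7 of them fell when a library was left out, 7 without mta 24 replicate 1, and 1 without Col-0 24 replicate 3 or mta 24 replicate 2 or 3. In the main fit the mta difference was lower at 24 than at 00 in 9 of the 13 (4.97% of all genes).

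**Figure D4:**
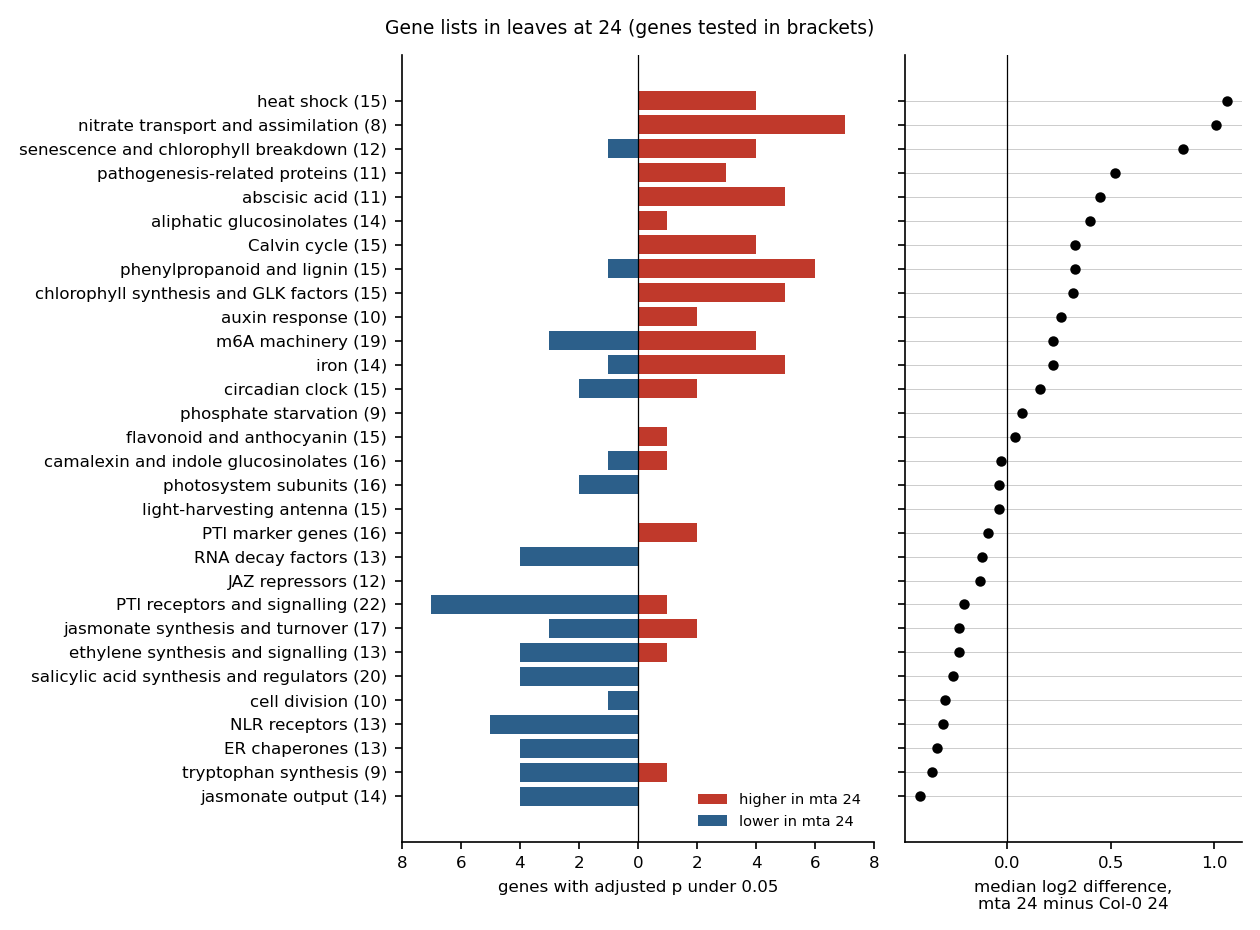
Number of genes of each list that were higher (red, to the right) or lower (blue, to the left) in mta 24 at an adjusted p under 0.05, and the median log2 difference of the list, with the number of genes tested in brackets. Nitrate genes have the most genes higher (7 of 8), and PTI receptors and signalling, the longest list, the most lower (7 of 22). The shares lower are larger for tryptophan synthesis (4 of 9) and NLR receptors (5 of 13). The lists were chosen with earlier results of these data known.

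The m6A machinery moved in both directions, with 4 rises and 3 falls among 19 tested genes, where 14.5% of all genes rose and 14.2% fell. The reader ECT4 had 78.9, 69.2 and 73.9 CPM in mta 24 and 50.9, 45.8 and 51.7 CPM in Col-0 24 (0.58 ± 0.11, adjusted p = 0.0029). The reader ECT1 went the other way, with 27.3, 30.0 and 31.6 CPM in mta 24 and 52.6, 43.7 and 45.5 CPM in Col-0 24 (−0.67 ± 0.10, adjusted p = 0.00066), and did so at 00 as well (−0.72, adjusted p = 0.00067). EMB2016 had 56.8, 58 and 56.9 CPM in mta 24 and 41.8, 36.4 and 41.5 CPM in Col-0 24 (0.52 ± 0.09, adjusted p = 0.0021). AT4G02940 (0.48, adjusted p = 0.02) and AT4G11970 (0.40, adjusted p = 0.036) rose, and ECT5 (−0.37, adjusted p = 0.026) and AT4G36090 (−0.40, adjusted p = 0.021) fell. With Col-0 24 replicate 3 left out the counts were 2 and 1, and with upper quartile scaling 7 and 3. Of 13 tested RNA decay factors 4 fell and 0 rose, where 14.2% of all genes fell. They were the decapping scaffold VCS (83.9, 77.0 and 83.5 CPM in mta 24 and 116, 104 and 123 CPM in Col-0 24, −0.49 ± 0.09, adjusted p = 0.0022), LSM1B (−0.51, adjusted p = 0.013), LSM1A (−0.32, adjusted p = 0.022) and DCP2 (−0.30, adjusted p = 0.046). The decay count was 1 without mta 24 replicate 2 and 2 without Col-0 24 replicate 1 or 3 or mta 24 replicate 3.

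In the circadian clock 2 of 15 genes rose and 2 fell, near the 14.5% and 14.2% of all genes. LUX, of the evening complex, had 5.52, 5.86 and 6.18 CPM in mta 24 and 1.73, 2.18 and 1.93 CPM in Col-0 24 (1.59 ± 0.19, adjusted p = 0.00025), although a locus of the other strand covers 40.3% of its span. ELF3, its partner, rose by 0.86 ± 0.17 (adjusted p = 0.0032). The coactivators LNK2 (−0.43, adjusted p = 0.01) and LNK1 (−0.34, adjusted p = 0.046, lost in 7 of 16 alternative settings) fell, and the labels give no time of day of collection. Of 10 auxin response genes the conjugating enzymes GH3.5 (1.69 ± 0.21, adjusted p = 0.0003) and GH3.3 (0.91, adjusted p = 0.022) rose, the second lost in 4 settings. Of 10 cell division genes 1 fell, the replication helicase subunit MCM2 (−0.57, adjusted p = 0.012, and 0.053 without mta 24 replicate 2). None of 9 phosphate starvation genes passed in the main edgeR fit (1 at an unadjusted p under 0.05, 1 by DESeq2). With the block 3 rose, and 1 rose with upper quartile scaling or without Col-0 24 replicate 1.

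Markers of leaf cell types and of other organs were summed in each library. Their calls stand against 14.5% of all genes that rose and 14.2% that fell. Summed over 5 mesophyll markers, the level was 36864 to 40411 CPM in mta 24 and 20460 to 32149 CPM in Col-0 24, and 2 of the 5 rose, RBCS1A and the carbonic anhydrase CA1 (0.90, adjusted p = 0.042), neither of them without Col-0 24 replicate 3. By contrast, the sums of the antenna list overlapped (65294 to 83998 CPM in mta 24, 66085 to 88329 CPM in Col-0 24). So did those of the photosystem subunits (29373 to 34227 CPM in mta 24, 28057 to 37699 CPM in Col-0 24). Guard cell markers summed to 104 to 121 CPM in mta 24 and 77.6 to 110 CPM in Col-0 24 (1 of 5 rose, FMA by 0.69, adjusted p = 0.015, lost without Col-0 24 replicate 1 or 3). Root markers summed to 27.2 to 39.2 CPM in mta 24 and 38.7 to 134 CPM in Col-0 24, nearly all of it BGLU23 and SHR, and 3 of the 7 had 0 counts in both groups. Of the 2 tested, 0 passed in the main edgeR fit (1 at an unadjusted p under 0.05, 0 by DESeq2), and 1 was lower without Col-0 24 replicate 2 or mta 00 replicate 1. The 5 seed markers summed to 0.496 to 0.597 CPM in mta 24 and 0.158 to 0.188 CPM in Col-0 24, with SESA3 at 0 counts. The 1 tested, the seed storage globulin CRA1, rose on few counts (33 in sum in mta 24 and 5 in Col-0 24, log2 difference 2.80), a call lost in 4 settings. The 4 flower markers summed to 2.65 to 3.28 CPM in mta 24 and 0.568 to 0.914 CPM in Col-0 24, and AG, the carpel and stamen factor, rose by 1.86 ± 0.26 (adjusted p = 0.0006). The 5 trichome and epidermis markers (69.6 to 87.6 CPM in mta 24 and 54.5 to 77.5 CPM in Col-0 24) and the 3 phloem markers (722 to 947 CPM in mta 24 and 659 to 723 CPM in Col-0 24) had no gene that passed in the main edgeR fit or by DESeq2 (1 trichome and 0 phloem markers at an unadjusted p under 0.05). With upper quartile scaling or without Col-0 24 replicate 2, 1 trichome marker rose, and without mta 24 replicate 1, 1 phloem marker rose. The part of cell composition in the differences above was not tested.

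Much of the genotype difference was present at 00, where 2913 genes (15.5%) were higher and 2497 (13.3%) lower in mta 00 than in Col-0 00. Of the 2737 genes higher in mta 24, 1109 (40.5%) were also higher and 131 (4.79%) were lower in mta 00. These 1109 are 38.1% of the genes higher at 00. Of the 2668 genes lower in mta 24, 1073 (40.2%) were also lower and 96 (3.6%) were higher in mta 00, and the 1073 are 43.0% of the genes lower at 00. The difference at 24 departed from that at 00 for 1833 genes (9.74%), with 897 positive and 936 negative. With the replicate number as a block there were 2899 such genes, and without mta 24 replicate 3 there were 809.

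The deposited m6A peak lists of 3 other Col-0 24 leaf libraries allowed the mRNA difference to be split by the presence of a peak in Col-0. These lists held 28850, 23301 and 21656 peaks, and 99.6% to 99.9% of peak summits lay in a gene annotated on the strand opposite to the one the list names. A gene was therefore assigned the peaks of the opposite strand. Of the 18824 tested genes, 7205 had a peak in all 3 libraries, 3941 in 1 or 2, and 7678 in none. In mta 24 the genes with a peak tended to lie lower than in Col-0 24, and those without a peak higher. Peak status came from Col-0 24 leaves only, where a gene expressed more is more readily given a peak. This choice of genes by itself favours that direction, and its part in the split was not tested. The median log2 difference was −0.13 for genes with a peak in all 3 libraries (quartiles −0.37 and 0.13), 0.02 for genes with a peak in 1 or 2, and 0.20 for genes without (quartiles −0.21 and 0.70). Of the genes with a peak 24.5% fell and 9.37% rose, while 5.3% of those without a peak fell and 18.7% rose. The 2 medians thus differed by −0.32. Genes are not replicates, so no p is given for this split.

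The direction was the same in each mta 24 library. On the scale of log2(CPM + 1) relative to the Col-0 24 mean, peak genes minus genes without a peak gave −0.244, −0.241 and −0.203 in mta 24 and −0.008, −0.008 and 0.021 in Col-0 24, values that do not overlap. The Col-0 values lie near 0 because their own mean is the baseline. The means were −0.229 ± 0.023 in mta 24 and 0.002 ± 0.017 in Col-0 24 (SD, n = 3 each, exact two-sided permutation p = 0.1, the smallest that 3 against 3 libraries can give). Baseline and peak classes both came from Col-0 24 and stayed fixed under the permutation. The separation and its p therefore add no support.

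Peak calling depends on expression, and genes with a peak were expressed more (median 26.7 CPM in Col-0 24, against 2.3 CPM for genes without) and had longer spans (median 2833 against 2048 bases). Within 5 equal bins of Col-0 24 expression, the median difference of peak genes and of genes without a peak was 0.37 and 0.42 in the lowest bin, 0.07 and 0.18 in the second, −0.08 and 0.05 in the third, −0.17 and −0.06 in the fourth, and −0.20 and −0.03 in the highest. In that highest bin 33.5% of 2197 peak genes fell, against 15.3% of 719 genes without a peak. Col-0 24 expression is also the term subtracted in the difference, so this binning by itself favours lower medians in higher bins. Bins by expression in Col-0 00, whose libraries are not part of the contrast, gave a gap between both medians of 0.14 in the lowest bin, which held 118 peak genes, and of −0.30, −0.27, −0.32 and −0.33 in the others. Bins by gene span gave gaps from −0.41 in the shortest to −0.14 in the longest. In the bins by Col-0 00 expression and by gene span, peak status still came from Col-0 24, so both keep that choice of genes. Among genes with a peak, summits lay in the last 1 of 5 equal parts of the gene span in 26.7% of cases for genes that rose, 26.6% for genes that fell and 28.7% for genes that did not pass. No label says which input the peak caller used for these lists.

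**Figure D5:**
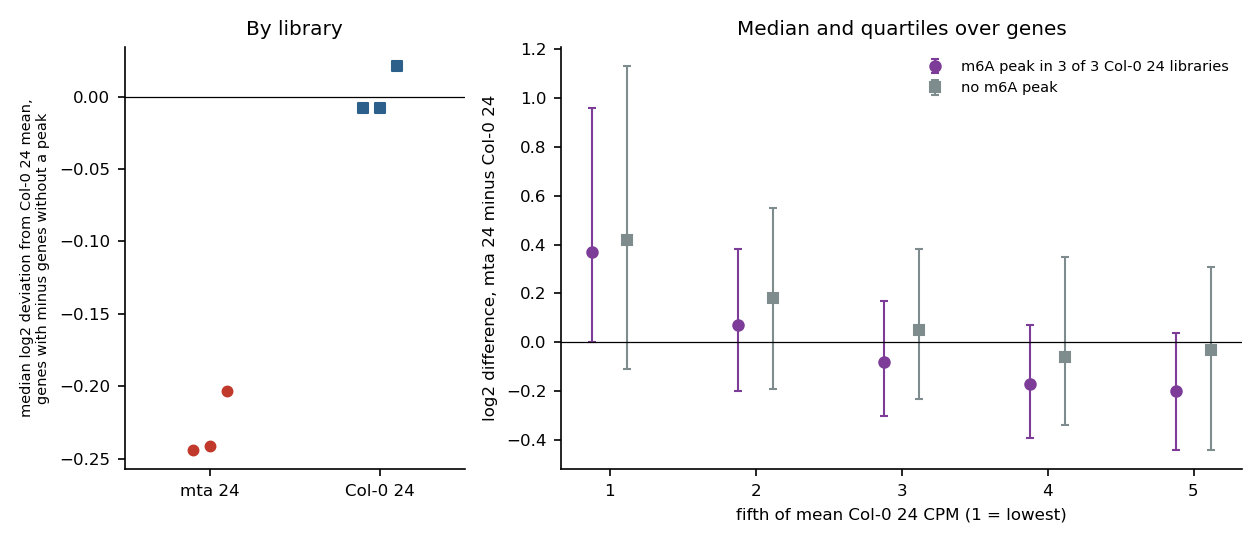
Left, median log2 deviation from the Col-0 24 mean in genes with an m6A peak in all 3 Col-0 24 libraries minus that in genes without a peak, 1 point per mRNA library, with mta 24 at −0.244 to −0.203 and Col-0 24 near 0. Right, median and quartiles over genes of the log2 difference, mta 24 minus Col-0 24, in 5 equal bins of Col-0 24 expression, where the peak genes have the lower median in every bin.

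Of the genes named above, the nitrate genes NIA2, NIR1, ASN2 and NRT1.1 and the falling jasmonate markers VSP1 and VSP2 kept their calls in all 16 alternative settings.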

How the data were processed

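Leaf mRNA was measured by paired-end sequencing after poly(A) selection, per the labels' protocols. The authors deposited whole-number read counts per annotated feature (62925 features, of which 32844 gene loci were kept). STAR, MACS2 and the TAIR10 build are named in the submitters' processing notes, without versions. Reads called ambiguous (4.23% to 4.93%) or not unique stayed out, and other named features held 0.147% to 0.254% of counts. The deposited m6A peak lists give a fold enrichment ratio and −log10 p-values and q-values per peak, and only the fold was used, as a filter. No label gives the strand setting of the counting.

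Counts of 12 leaf libraries were fitted with edgeR 4.0.16 (R 4.3.3, TMM scaling, its default low-count filter, quasi-likelihood test, Benjamini-Hochberg adjustment over all 18824 genes, threshold 0.05). CPM values are scaled by TMM. Symbols came from a RefSeq table. Named were the 15 largest rises and falls with at least 10 CPM in one group mean and no overlap between groups, the 4 smallest p of each list, further members where a count of 5 or fewer was spelled out, and the 5 largest differences of differences in each direction. PR1, ICS1, EDS5 and PBS3 were named besides these and are outside the counts of named genes. Members and gene lists were chosen with earlier results of these data known. DESeq2 1.42.0, other scalings and filters, and leaving out libraries were alternatives. Same-numbered mta 24 and Col-0 24 libraries deviated together over genes (r = 0.297, 0.136 and 0.159, all above 0.1), so replicate number was also fitted as a block. The largest r with a differently numbered library was −0.123, 0.0212 and 0.229, so replicate 3 did not follow its own number best. At 00 the same-numbered r was 0.345, −0.0544 and 0.127, and the largest with another number −0.122, 0.247 and 0.276. Pairing by number is thus uncertain. The script was tested on simulated data. The 24 other per-sample value columns were not used. A result of the ethylene list is not reported here.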

Additional observations from a re-analysis of the deposited data

Results flagged for a closer look

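The difference between mta and Col-0 departed between 24 and 00 for 1833 genes by the test of the difference of differences (edgeR, adjusted p under 0.05), which is what singled out the genes here. The groups hold 3 libraries each, too few for a check of single samples.

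The 5 largest positive values, a higher mta difference at 24 than at 00, were those of PHI-1 (4.75, adjusted p = 0.0011), the amino acid transporter family gene UMAMIT33 (4.36, adjusted p = 0.0059), CYP707A3 (4.29, adjusted p = 0.0003), AT1G62510 (4.02, adjusted p = 0.0043) and the transcription factor DREB26 (3.91, adjusted p = 0.00027). PHI-1 had 132, 244 and 238 CPM in mta 00 and 216, 447 and 400 CPM in Col-0 00, far above its levels at 24. DREB26 had 75.3, 62.0 and 55.8 CPM in mta 00 and 191, 137 and 121 CPM in Col-0 00, and 1.59, 1.53 and 2.14 CPM in mta 24 and 0.315, 0.242 and 0.267 CPM in Col-0 24.

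The 5 largest negative values were those of RAP2.6 (−9.21, adjusted p = 0.025), JAL33 (−8.46, adjusted p = 0.042), GLR2.5 (−7.69, adjusted p = 0.025), UGT76B1 (−7.68, adjusted p = 0.0048) and HSP17.6A (−7.44, adjusted p = 0.038). Each had 0 to 2 counts in sum over the Col-0 00 libraries, so these fitted values depend on the prior count. Among the libraries at 00 they were highest in mta 00 replicate 1, the library that stood apart. RAP2.6, an ethylene-response-type factor, had 41.7, 0.233 and 6.77 CPM in mta 00. UGT76B1, a glycosyltransferase of immune signals, had 7.39, 1.01 and 3.10 CPM in mta 00, and 614, 293 and 329 CPM in mta 24 against 564, 378 and 478 CPM in Col-0 24. Without mta 00 replicate 1, JAL33 lost its call, and RAP2.6, GLR2.5, UGT76B1 and HSP17.6A kept theirs. The part of that library in these values was not tested further. RAP2.6, JAL33, GLR2.5 and HSP17.6A lost their call in 6, 9, 6 and 8 alternative settings, and the other 6 genes kept it in all that were run.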

How the results depend on the processing

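The count of 5405 genes for mta 24 against Col-0 24 was 6663 with the replicate block, 7214 with the block in the 6 libraries at 24 alone, 6133 by DESeq2 and 1610 with a fold of 2 or more. Leaving out 1 library at 24 gave 3298 to 5158. Without mta 00 replicate 1, chosen after seeing the data, it was 6459. The difference-of-differences count of 1833 was 2974 by DESeq2, 2899 with the replicate block and 1107 with a fold of 2 or more, and 809 to 2170 with 1 library left out. The gap of −0.32 between genes with and without an m6A peak was −0.28 with a peak in at least 1 library, and −0.35 to −0.31 with 1 library left out. The splits by Col-0 00 level and by gene span were chosen after seeing the data. The cause of these changes was not tested.

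Of 140 named genes that passed, 80 passed in every setting, 60 were lost in some, and 0 reversed. MKK1 was the 1 call lost with the block. Of 46 that did not pass, 27 passed in some setting and 12 with the block. Signs changed in 4 genes that did not pass. With 1 library left out, MCM5 ranged over −0.38 to 0.00 (without Col-0 24 replicates 1 and 2), CER5 over −0.03 to 0.23 (without mta 24 replicate 1 and Col-0 24 replicate 2), GL2 over −0.30 to 1.06 (without mta 24 replicate 1 and Col-0 24 replicate 2, and −0.07 without Col-0 24 replicate 3), and APL over −0.23 to 0.10 (without mta 24 replicates 3 and 1). APL was 0.00 with upper quartile scaling. Genes under the low-count filter, 14020 loci, were not tested.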

Other observations

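Gene families were grouped by symbol after their values had been seen, so their counts are a description. Over all tested genes 14.5% were higher and 14.2% lower in mta 24. In the GST, WRKY and RLP families the shares higher and lower lay near or below these. A lower mta difference at 24 than at 00 was found for 4.97% of all genes, and a higher one for 4.77%. Of 50 tested UGT glycosyltransferases, 23 were higher and 1 lower in mta 24 (median log2 difference 0.59). Of 21 XTH cell-wall enzymes, 7 were higher and 0 lower (median 0.52), and of 36 glutathione transferases (GST) 6 were higher and 3 lower (median 0.23). The WRKY transcription factors split evenly, with 5 higher and 5 lower of 53 (median −0.04), while 10 of them had a lower mta difference at 24 than at 00 and 0 a higher one. That count at 24 against 00 is for the main fit only. Of 46 receptor-like proteins (RLP), 3 were higher and 5 lower (median −0.24). Of 5 late embryogenesis abundant (LEA) genes 4 were higher (median 1.74), and of 5 dark-inducible (DIN) genes 3 were higher (median 2.67). All 3 tested JAL lectins were lower (median −2.11), but only 1 was lower without Col-0 24 replicate 1 or 3 or mta 24 replicate 1, 2 or 3, and 2 by DESeq2.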
